A study of Mus musculus with 24 samples.

Results

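The genes described here encode proteins of elastic fibres and microfibrils together with latent TGF-beta binding proteins, the large matrix proteins that hold inactive TGF-beta. They were taken by symbol from the deposited count table, which holds 49568 gene symbols, and all 10 were found: Eln, Fbn1, Emilin1, Mfap2, Mfap5, Ltbp1, Ltbp2, Ltbp3, Fbln2 and Fbln5. The cells were NIH/3T3, an established line of mouse embryo fibroblasts, kept in medium with 10% bovine calf serum. They received halofuginone, an inhibitor of the prolyl-tRNA synthetase activity of Eprs, at 100 nM per the labels, or the same volume of PBS as vehicle, for 24 h at 37 °C. From both treatments RNA was sequenced as total RNA and as ribosome-free, light polysome and heavy polysome pools of a gradient, with 3 libraries in each of the 8 groups. All libraries came from this single line, and no other genotype was used.

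An elastic fibre forms when tropoelastin, the product of Eln, is deposited on a scaffold of fibrillin microfibrils and crosslinked by lysyl oxidases. Fibrillin-1 (Fbn1) is the main microfibril protein, the microfibril-associated glycoproteins (Mfap2, Mfap5) bind it, Emilin1 lies where elastin meets the microfibril, and the fibulins bind elastin and fibrillin. Latent TGF-beta binding proteins share the domain plan of fibrillin. Ltbp1 and Ltbp3 bind the latent TGF-beta complex covalently, whereas Ltbp2 does not bind latent TGF-beta and associates with microfibrils.

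Because halofuginone blocks the charging of tRNA with proline, the coding sequence richest in proline is shown for 5 of the genes, as a stretch of 20 codons within a single exon of the GRCm38 genome with proline codons in capitals. In Fbn1 the stretch covers codons 402 to 421 (chr2:125389950-125390009, minus strand) and holds 12 proline codons. In Emilin1 it covers codons 822 to 841 (chr5:30919276-30919335, plus strand) and holds 10, in the collagen-like part of the protein. In Ltbp3 it covers codons 480 to 499 (chr19:5747772-5747831, plus strand) and holds 8. In Fbln5 it covers codons 104 to 123 (chr12:101809765-101809824, minus strand) and holds 7. In Mfap5 it covers codons 133 to 152 (chr6:122528333-122528392, plus strand) and holds 4.
Fbn1: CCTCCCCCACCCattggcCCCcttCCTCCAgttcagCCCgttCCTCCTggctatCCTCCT
Emilin1: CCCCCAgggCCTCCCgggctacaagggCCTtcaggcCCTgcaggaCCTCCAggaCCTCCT
Ltbp3: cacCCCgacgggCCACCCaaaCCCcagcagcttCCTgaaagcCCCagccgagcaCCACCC
Fbln5: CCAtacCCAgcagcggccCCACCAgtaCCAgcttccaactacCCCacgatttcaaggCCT
Mfap5: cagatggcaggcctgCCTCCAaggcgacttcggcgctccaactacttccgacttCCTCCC

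Over whole coding sequences, proline made up 10.9% of the codons of Eln, the highest share of the 10 genes, and 6.23% in Fbn1, the lowest. The shares were 9.82% in Ltbp3, 9.23% in Ltbp2, 8.65% in Mfap2, 7.7% in Fbln2, 7.47% in Emilin1, 7.41% in Ltbp1, 7.38% in Fbln5 and 7.32% in Mfap5. All 10 lay above 5.48%, the median of 9741 genes that averaged 5 CPM (counts per megacount of the library) or more in total RNA. Fbn1, with the densest stretch, thus had the lowest overall share. Cysteine, which forms the disulphide bonds of their EGF-like and TGF-beta binding domains, made up 12.6% of codons in Fbn1 and 8.64% to 9.58% in the Ltbp genes and fibulins, against a median of 1.86%. Eln had 36.3% glycine codons, against a median of 6.23%.

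The 24 libraries were divided here by the form of their column names, which state no set. Names of set A, with 1 library per group, hold no replicate number, and the tag A was given here. Names of set B, with 2 libraries per group, hold a replicate number, used as the tag. Columns of the sets also name different gradient fractions for the pools, and the 4 halofuginone columns of set A name a dose of 50 nM. Only that dose ties set A of total RNA to set A of the pools in the names. Unless stated otherwise, CPM from here on have library totals adjusted by TMM scaling, a factor per library, within each kind of RNA. In total RNA, Trib3, a target of the amino acid stress response, had 29.4 CPM in the set A halofuginone library and 231 and 215 CPM in those from set B, against 13.3, 14.8 and 13.3 CPM in vehicle libraries. Eprs, the gene of the drug's target, had 344, 1080 and 1090 CPM with halofuginone, set A first, against 347, 307 and 334 CPM in vehicle. In total RNA the set A halofuginone library stood near vehicle for Eprs and 2.21-fold above it for Trib3, and results are given with all libraries and for set B. In the gradient pools the order was the reverse, with the larger Trib3 ratios in set A. For set A, Trib3 CPM with halofuginone over those in vehicle gave ratios of 15.4 for heavy polysomes, 12 for light polysomes and 11 for ribosome-free RNA, against ratios between 0.788 and 4.23 in the set B pairs. Set and named dose cannot be told apart in any kind of RNA, and in the pools neither can be told apart from the gradient fractions.

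Library totals ranged between 10.3 and 25.0 megacounts (1 megacount is 1000000 counts). Mitochondrial genes took 8.69% to 34.9% of counts in the ribosome-free pool and 0.276% to 0.746% in heavy polysomes. All 8 fibroblast markers reached 5 CPM in total RNA, with sums of 14200 to 17200 CPM in halofuginone libraries and 16700 to 18900 CPM in vehicle libraries. Fn1, the most abundant, had a mean of 9130 CPM with halofuginone, against 7920 CPM in vehicle, and the other 7 had lower means with halofuginone, such as Pdgfra with 136 CPM, against 412 CPM in vehicle. Of the markers of other cell types, Vwf, Fabp4, Lpl, Sox9 and Smtn reached 5 CPM, while the epithelial list summed to at most 0.816 CPM and 0.274 CPM, with Epcam and Krt5 at 0. The endothelial list, carried by Vwf, summed to 26.3 to 85.9 CPM with halofuginone and 10.5 to 17.1 CPM in vehicle. The chondrocyte list, carried by Sox9, summed to 80.8 to 111 CPM with halofuginone and 123 to 140 CPM in vehicle, and the adipocyte list, carried by Lpl and Fabp4, to 89.4 to 168 CPM and 134 to 282 CPM. The smooth muscle list, carried by Smtn, summed to 45.6 to 72.2 CPM and 46.5 to 69 CPM, and the leukocyte list to 1.22 to 5.39 CPM and 4.21 to 7.14 CPM. Myocd and Col9a1 were also at 0. The part of these markers in the results was not tested. CPM are relative to a library's scaled total, so fewer cells expressing a gene and less RNA per cell cannot be told apart.

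Eln and Mfap2 were at the limit of detection in these fibroblasts. Eln, on chromosome 5 (134702593 to 134747323, minus strand), had 18 reads over all 24 libraries, at most 6 in a library and none in 15 of them. In total RNA it had 0, 2 and 1 reads with halofuginone, against 0 reads in each vehicle library. Mfap2, on chromosome 4 (141010418 to 141015984, plus strand), had 4 reads in all and at most 1 in a library. A count of 0 allows a level of up to 0.12 to 0.291 CPM, depending on the library's depth. Neither gene passed the filter on low counts in any pool, and a difference between treatments was not detectable at this depth.

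The other 8 genes spanned a wide range of levels. Per length of annotated exons, Fbln2 was highest in total RNA by a wide margin, with 201 ± 16.3 RPKM in halofuginone cells and 225 ± 16.5 RPKM in vehicle cells (SD, n = 3 each). In vehicle cells Ltbp3 (30.3 ± 2.22 RPKM), Emilin1 (29.5 ± 1.84), Ltbp2 (29.4 ± 1.39) and Fbln5 (26.7 ± 10.9) followed, and the ranges of these 4 genes overlapped. With the longest transcript as length Ltbp3 stood at 47.9 ± 3.51 RPKM, above every vehicle library of Emilin1 and Ltbp2. Mfap5 (9.23 ± 4.38 RPKM) and Ltbp1 (8.32 ± 0.209) also overlapped, and Fbn1 was lowest at 4.45 ± 0.558 RPKM, below every library of Ltbp1. In halofuginone cells the means were 21.6 ± 8.34 RPKM for Ltbp3, 16.3 ± 3.44 for Fbln5, 13.3 ± 16.7 for Emilin1 and 12 ± 8.74 for Ltbp2. Ltbp1 had 6.15 ± 1.61 RPKM there, Fbn1 5.26 ± 2.13 and Mfap5 4.1 ± 4.37. The large SDs of Emilin1 and Mfap5 go with the distance between set A and set B.

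**Figure D1:**
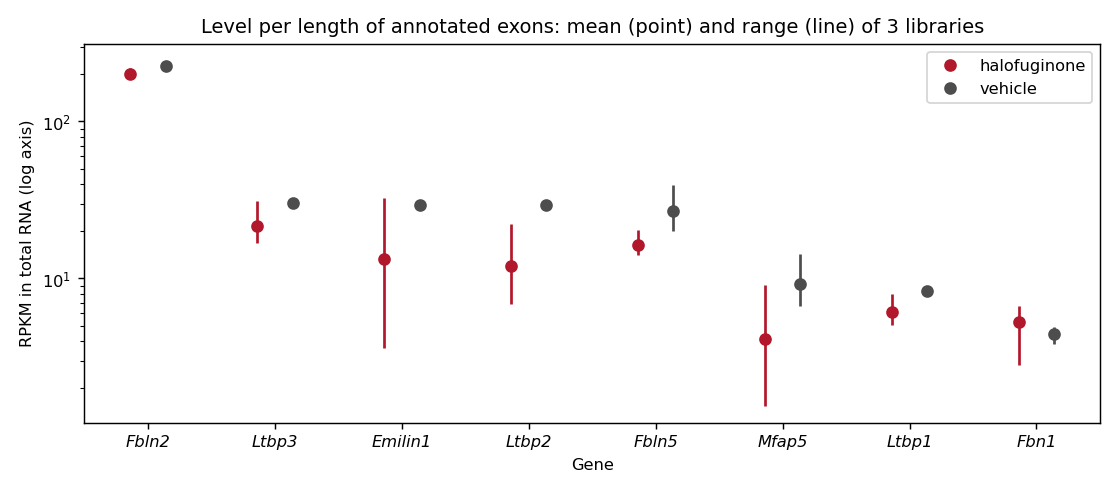
RPKM in total RNA on a log axis for the 8 measured genes, ordered by the vehicle mean, with halofuginone left of vehicle; points are means of 3 libraries and lines the range. Fbln2 stands apart at the top, and the halofuginone ranges of Emilin1, Ltbp2 and Mfap5 are the widest.

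The first comparison asked whether halofuginone changed these mRNAs in total RNA. In set B, where both check genes responded, 7 of the 8 genes fell and Fbn1 rose, with Emilin1, Ltbp2 and Mfap5 falling most. Of all 13334 genes tested in set B, 70.0% were called by edgeR's quasi-likelihood test at an adjusted p under 0.05, 36.9% lower and 33.1% higher, so being called is the usual outcome there. With all 3 libraries per group, edgeR called 0 of 13020 genes (0%), none of the 8 among them. At an unadjusted p under 0.05 it held 17.6% of genes and 1 of the 8, Ltbp2, and DESeq2 called 3.96% of genes and 0 of the 8, giving no p for Emilin1.

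Emilin1, which links elastin to the microfibril and binds integrins (chromosome 5, 30913402 to 30921277), had 161 CPM in the set A halofuginone library and 18.8 and 17.9 CPM in those of set B, against 147, 136 and 154 CPM in vehicle libraries. Both set B halofuginone libraries lay far below every vehicle library, and the set A one above all 3. Emilin1 fell by 3.03 ± 0.09 on the log2 scale in set B, 8.17-fold (SE, n = 2 each; edgeR adjusted p = 2.64e-07). With all libraries the log2 fold change was -1.15 ± 0.87 (edgeR adjusted p = 0.453).

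Mfap5, a microfibril-associated glycoprotein that also carries an integrin binding motif (chromosome 6, 122505845 to 122529290), had 32.8, 5.58 and 5.74 CPM with halofuginone (set A first), against 51.3, 24.1 and 24.0 CPM in vehicle. It was lower in each set, and the set A halofuginone library was above both set B vehicle libraries. Mfap5 fell 4.39-fold in set B (log2 fold change -2.13 ± 0.11, edgeR adjusted p = 2.37e-06). With all libraries its log2 fold change was -1.17 ± 0.78 (edgeR adjusted p = 0.407).

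Fbn1 (chromosome 2, 125300594 to 125507993) went the other way. It had 34.1, 76.3 and 81.0 CPM with halofuginone, against 46.6, 55.4 and 59.9 CPM in vehicle. The set A halofuginone library was the lowest of the 6 and the set B halofuginone libraries the highest. Fbn1 rose 1.32-fold in set B (log2 fold change 0.40 ± 0.08, edgeR adjusted p = 0.00255) and differed by 0.24 ± 0.34 on the log2 scale with all libraries (edgeR adjusted p = 0.666).

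Of the fibulins, Fbln2 (chromosome 6, 91212455 to 91272540), which binds fibrillin and elastin, changed least. It had 1400, 1250 and 1200 CPM with halofuginone, against 1540, 1330 and 1430 CPM in vehicle. Fbln2 fell 1.16-fold in set B (log2 fold change -0.22 ± 0.07, edgeR adjusted p = 0.0301). Fbln5, which is needed for elastic fibre assembly in mice (chromosome 12, 101746565 to 101819055), had 140, 98.1 and 99.7 CPM with halofuginone, against 271, 139 and 143 CPM in vehicle. It was lower within each set, by the larger margin in set A, and fell 1.48-fold in set B (log2 fold change -0.56 ± 0.07, edgeR adjusted p = 0.0002). With all libraries the log2 fold changes were -0.16 ± 0.15 for Fbln2 (edgeR adjusted p = 0.542) and -0.71 ± 0.32 for Fbln5 (0.303).

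Among the latent TGF-beta binding proteins, Ltbp2 (chromosome 12, 84783212 to 84876532) differed most. It had 181, 55.9 and 58.4 CPM with halofuginone, against 233, 236 and 254 CPM in vehicle, so that every halofuginone library was below every vehicle library. Ltbp1 (chromosome 17, 75005568 to 75392512) also did not overlap, with 85.5, 57.9 and 53.8 CPM with halofuginone, against 87.3, 91.5 and 88.1 CPM in vehicle, although in set A the log2 ratio was only -0.03. These 2 genes were the only ones of the 8 with all halofuginone libraries below all vehicle libraries in total RNA, which 11.4% of genes showed. Ltbp3 (chromosome 19, 5740904 to 5758532) had 283, 152 and 152 CPM with halofuginone, against 297, 258 and 269 CPM in vehicle.

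In set B, Ltbp2 fell 4.42-fold (edgeR adjusted p = 5.19e-07), Ltbp3 1.79-fold (2.32e-05) and Ltbp1 1.66-fold (7.73e-05). With all libraries the log2 fold changes were -1.29 ± 0.48 for Ltbp2 (edgeR adjusted p = 0.272), -0.49 ± 0.28 for Ltbp3 (0.357) and -0.44 ± 0.21 for Ltbp1 (0.315). Over the 8 genes the median log2 fold change was -0.60, against 0.02 over all genes tested. Set side by side by column tag, which did not pair the libraries of total RNA beyond the tag itself, 6 of the 8 genes were lower with halofuginone in all 3 pairs, as were 22.1% of all genes. Fbn1, Ltbp1, Ltbp2 and Ltbp3 each overlap another annotated gene, which lies on the same strand for Ltbp1 and on the opposite strand for the others. The strand setting of the counting is not given in the sources used here. Reads of the neighbours may therefore be included, or reads in the overlaps lost.

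**Figure D2:**
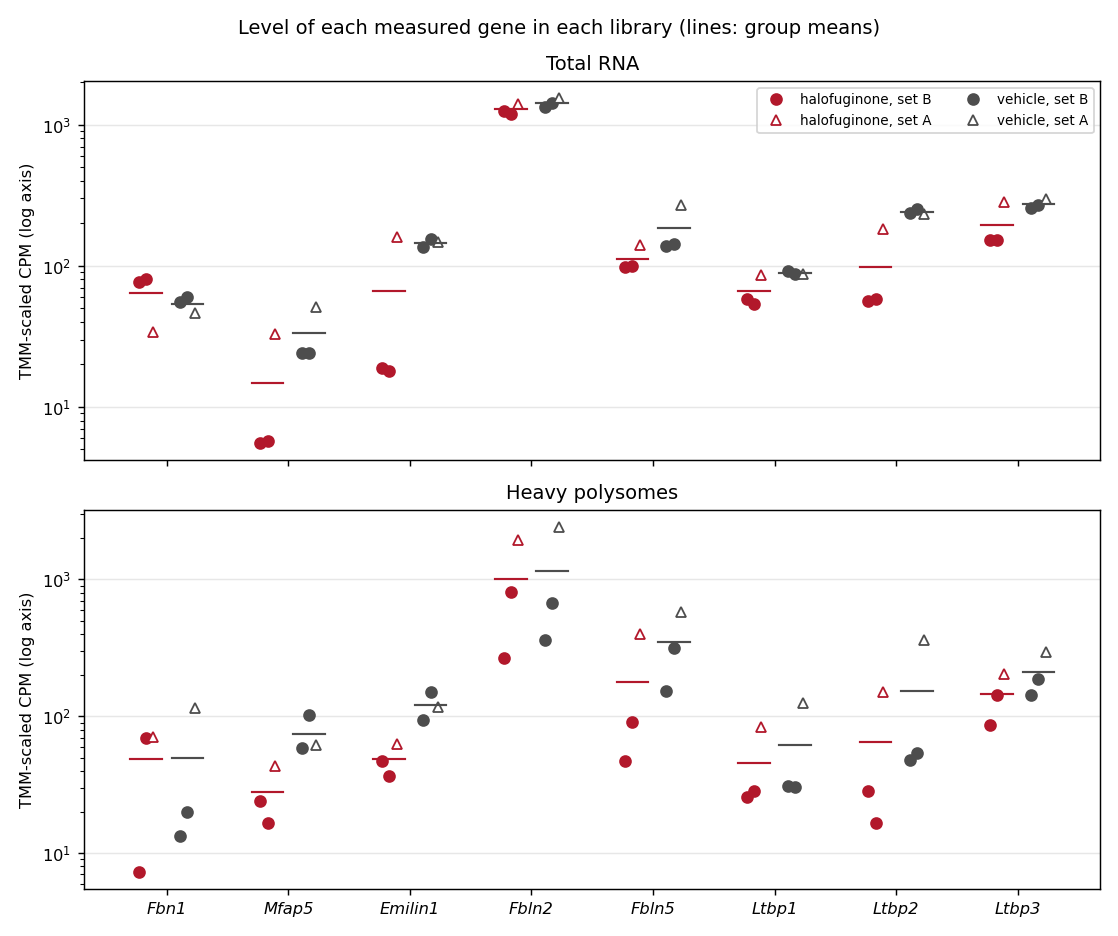
TMM-scaled CPM on a log axis for each library in total RNA (top) and heavy polysomes (bottom), halofuginone left of vehicle; triangles are set A, filled circles set B, lines group means. In total RNA the set B halofuginone libraries of Emilin1, Mfap5 and Ltbp2 lie far below vehicle while the set A library lies nearer to it, and in heavy polysomes the 3 halofuginone libraries of Emilin1 and Mfap5 lie below all vehicle libraries.

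The size of the treatment effect differed between the sets. The effect in set B minus that in set A, a test added after the data had been seen, passed the threshold in 7 of the 8 genes and in 52.1% of all genes tested. The difference on the log2 scale was -3.12 ± 0.15 for Emilin1 (edgeR adjusted p = 8.85e-06), -1.74 ± 0.13 for Ltbp2 (4.84e-05) and -1.44 ± 0.16 for Mfap5 (0.000263). It was -0.72 ± 0.12 for Ltbp3 (0.00172), -0.66 ± 0.13 for Ltbp1 (0.00449), 0.90 ± 0.14 for Fbn1 (0.00153) and 0.43 ± 0.12 for Fbln5 (0.017). Fbln2 had -0.03 ± 0.13 (0.867). Set A has a single library per treatment in this fit, which is assumed to vary like those of set B. The set B halofuginone libraries of total RNA were also the most alike pair of a group, with a mean chi-square of 3.12 per gene against 21.1 for the next pair, and the SEs of set B measure the spread between such libraries.

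The genes around them were described in the same way, and the counts below stand against 36.9% of all genes lower and 33.1% higher in set B. Of 18 microfibril and elastic fibre partners, 9 were tested in set B of total RNA and 7 fell and 1 rose. Emilin2 (3.74-fold; edgeR adjusted p = 1.23e-06) and the proteoglycan Vcan (2.94-fold; 2.15e-06) fell, while Ltbp4, the remaining latent TGF-beta binding protein, rose 2.27-fold (0.000101), named here for its family and after its values were seen. Of 5 crosslinking genes 4 were tested and 3 fell, among them Lox, the lysyl oxidase that crosslinks elastin and collagen, 12.9-fold (3.12e-07), and Loxl3 4.16-fold (7.57e-07). Lox averaged 374 ± 479 CPM in halofuginone cells and 1440 ± 405 CPM in vehicle cells (SD, n = 3 each).

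Of 15 genes of latent TGF-beta and its release, 13 were tested in set B, 9 fell and 3 rose, again against 36.9% and 33.1% of all genes. Thbs1, thrombospondin-1, which can activate latent TGF-beta, fell 13-fold in set B (edgeR adjusted p = 1.05e-07), and Itgb8, an integrin subunit that releases TGF-beta, 9.13-fold (1.2e-05). Of the 7 TGF-beta targets described here, all were tested, and they split, with 3 higher and 3 lower. Tgfbi fell 29.3-fold (4.16e-06) at a low level of 1.51 ± 2.11 CPM in halofuginone cells and 6.80 ± 3.40 CPM in vehicle cells (SD, n = 3 each). Postn, the matrix protein periostin, fell 5.05-fold (1.78e-06). Of 9 elastases 4 were tested and all 4 fell, among them Cela1 3.3-fold (1.72e-05) and Mmp2 2.89-fold (1.56e-06). With all libraries edgeR called none of these genes, and the largest log2 fold changes among the named genes were -2.17 ± 1.10 for Tgfbi and -2.02 ± 0.61 for Itgb8.

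**Figure D3:**
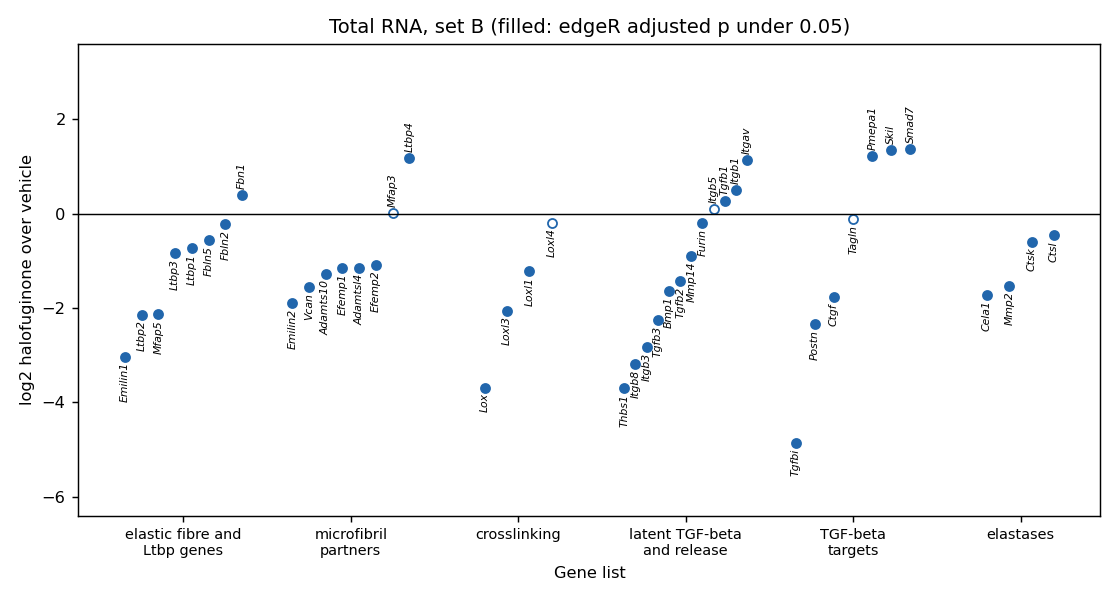
Log2 halofuginone over vehicle in total RNA of set B for the 8 measured genes and 5 lists of related genes, where they averaged 5 CPM or more in either treatment; filled points have an edgeR adjusted p under 0.05. Most points lie below 0, the filled points above it include Fbn1, Ltbp4, Tgfb1, Itgav, Itgb1 and 3 TGF-beta targets, and Tgfbi is lowest.

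The second comparison asked whether the genes' share of ribosome-bound RNA changed. In heavy polysomes, RNA that carries many ribosomes, all 8 genes had a log2 fold change below 0 and the median was -0.74, against 0.02 over all genes tested, but edgeR called 0 of 12222 genes (0%). At an unadjusted p under 0.05 it held 6.17% of genes and 2 of the 8, Emilin1 and Mfap5, both lower. With the column tag as replicate block, which fits the pairing of these libraries, 16.0% of genes and 5 of the 8 had an unadjusted p under 0.05, all 5 lower, and the 8 genes had edgeR adjusted p-values of 0.25 or above. The added genes were Ltbp2 (-1.23 ± 0.22), Fbln5 (-1.34 ± 0.29) and Ltbp3 (-0.55 ± 0.17). DESeq2 called 0.638% of genes and 1 of the 8, Emilin1. Emilin1 and Mfap5 were also the genes with all halofuginone libraries below all vehicle libraries, as were 6.92% of genes, and 6 of the 8 genes were lower in all 3 pairs, as were 24.4% of genes.

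Emilin1 had 62.6, 47.1 and 36.7 CPM in heavy polysomes with halofuginone, against 117, 94.3 and 151 CPM in vehicle. The highest halofuginone library was well below the lowest vehicle library, and set A, which showed no lower level in total RNA, was lower here. The check genes of set A also responded unequally. Trib3 ratios of halofuginone over vehicle were 2.21 in total RNA and 15.4 in heavy polysomes, and those of Eprs 0.99 and 1.78. The part of this in the contrast was not tested. The log2 fold change of Emilin1 was -1.31 ± 0.30 (edgeR adjusted p = 0.767; DESeq2 adjusted p = 0.0239). Mfap5 had 43.5, 24.0 and 16.7 CPM with halofuginone, against 61.4, 58.6 and 102 CPM in vehicle, again with no overlap, and its log2 fold change was -1.40 ± 0.40 (edgeR adjusted p = 0.792; DESeq2 adjusted p = 0.13).

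In each of the remaining genes the set A library was the highest of its group in both treatments. Fbln5 had 399, 47.4 and 90.4 CPM with halofuginone, against 578, 153 and 313 CPM in vehicle, lower in every pair (log2 fold change -0.96 ± 0.79, edgeR adjusted p = 0.877). Ltbp2 had 151, 28.4 and 16.6 CPM with halofuginone, against 358, 48.3 and 53.7 CPM in vehicle, also lower in every pair (-1.23 ± 1.01, edgeR adjusted p = 0.876). These values come from the fit without the replicate block, and those with the block, which had smaller SEs, are given above. With 1 library left out of the fit without the block, the log2 fold change lay between -2.32 and -0.38 for Fbln5. It lay between -2.76 and 0.36 for Ltbp2. The ends were without the set A halofuginone and the set A vehicle library, and leaving out either breaks the set A pair. Although both genes were lower in every pair, the groups overlapped, since the set A halofuginone library lay above set B vehicle libraries. Ltbp3 had 205, 86.1 and 144 CPM with halofuginone, against 297, 143 and 187 CPM in vehicle (-0.53 ± 0.40, edgeR adjusted p = 0.867).

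Ltbp1 had 83.4, 25.8 and 28.3 CPM with halofuginone, against 125, 30.9 and 30.3 CPM in vehicle (-0.44 ± 0.67, edgeR adjusted p = 0.946). Fbln2 had 1930, 265 and 809 CPM with halofuginone, against 2400, 363 and 675 CPM in vehicle (-0.20 ± 0.82, edgeR adjusted p = 0.986). Both overlapped, and Fbln2 was higher with halofuginone in the pair tagged 4. Fbn1 had 70.8, 7.33 and 69.0 CPM with halofuginone, against 115, 13.3 and 20 CPM in vehicle (-0.01 ± 0.96, edgeR adjusted p = 0.999), lower in 2 pairs and higher in the pair tagged 4. Trib3 had 273, 74.3 and 674 CPM in heavy polysomes with halofuginone, against 17.8, 50.8 and 159 CPM in vehicle, so that the pair tagged 2 differed least.

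**Figure D4:**
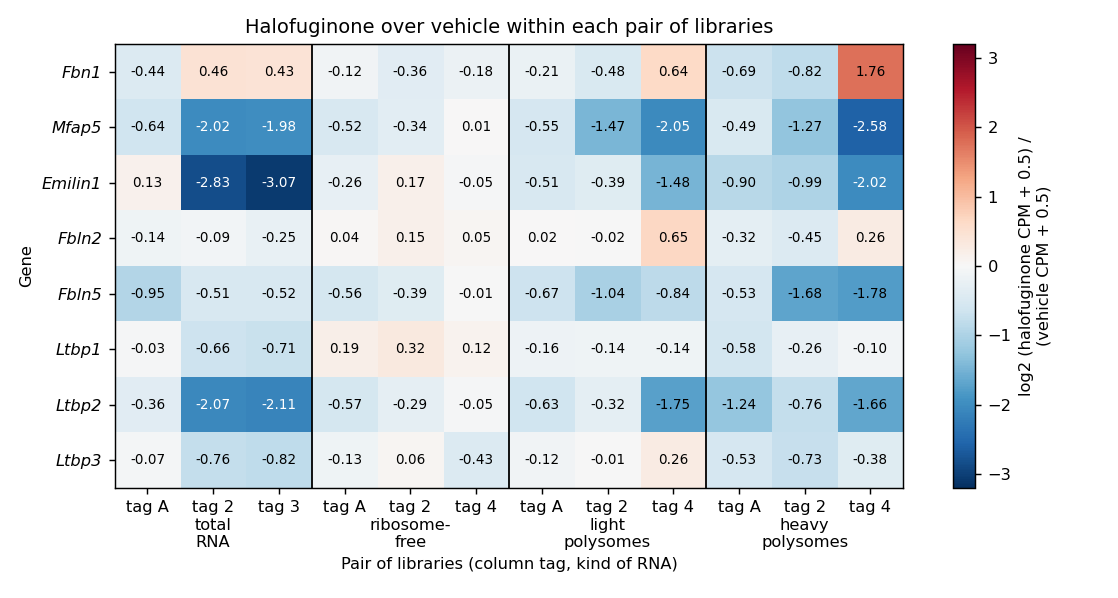
Log2 ratio of halofuginone over vehicle CPM, with 0.5 added to each, for the 8 measured genes in each pair of libraries that share a column tag, grouped by total RNA and the 3 gradient pools; blue is lower and red higher with halofuginone. Emilin1 and Mfap5 are lower in every pair of light and heavy polysomes, and Fbn1 is higher in the set B pairs of total RNA and in the pairs tagged 4 of light and heavy polysomes.

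In light polysomes edgeR called 0 of 12632 genes (0%), with 4.27% of genes and 2 of the 8 at an unadjusted p under 0.05, and DESeq2 called 0.309% of genes and 0 of the 8. With the replicate block 13.6% of genes and 4 of the 8, all lower, had an unadjusted p under 0.05, at edgeR adjusted p-values of 0.356 or above. Mfap5 had 48.5, 15 and 22.8 CPM with halofuginone, against 71.3, 42.4 and 95.9 CPM in vehicle (log2 fold change -1.28 ± 0.48, edgeR adjusted p = 0.981). Emilin1 had 37.4, 27.6 and 18.0 CPM with halofuginone, against 53.5, 36.4 and 51.1 CPM in vehicle (-0.76 ± 0.32, edgeR adjusted p = 0.981). Both groups overlapped by a single halofuginone library, and both genes were lower in each pair. In all, 5 of the 8 genes were lower in every pair of light polysomes, as were 22.6% of genes.

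In the ribosome-free pool differences were small. The check genes also responded little there in set B. Trib3 ratios of halofuginone over vehicle were 11 in set A and 0.798 and 1.01 in the pairs tagged 2 and 4. Those of Eprs were 1.86, 1.42 and 0.976. EdgeR called 0 of 11960 genes (0%), with 0.251% of genes and 0 of the 8 at an unadjusted p under 0.05, and DESeq2 called 0 (0%). With the replicate block 8.38% of genes and 1 of the 8, Fbln5, had an unadjusted p under 0.05 (log2 fold change -0.32 ± 0.15, edgeR adjusted p = 0.584). The log2 fold changes of the 8 genes lay between -0.41 for Ltbp2 and 0.20 for Ltbp1. Emilin1 had 9.45, 12.4 and 12.5 CPM with halofuginone, against 11.4, 11 and 13 CPM in vehicle, with the groups intermingled. Of the 8 genes 3 were lower in every pair, as were 12.8% of genes.

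Differences of the treatment effect between pools were each tested in a separate fit over 12 libraries, without a replicate block. The effect in heavy polysomes minus that in total RNA was called for 0 of 13459 genes (0%), and that in heavy polysomes minus the ribosome-free pool for 0 of 13053 (0%). At an unadjusted p under 0.05 the first held 128 genes (0.951%) and none of the 8, and the second 53 genes (0.406%) and 1 of the 8, Emilin1. DESeq2 called 1 gene and 0 genes in these fits, none of the 8. Tags pair the heavy and ribosome-free libraries. With the column tag as replicate block, 1.1% of genes and 1 of the 8 had an unadjusted p under 0.05 in edgeR's second fit. For Emilin1 the log2 effect in heavy polysomes minus that in the ribosome-free pool was -1.19 ± 0.41 (edgeR adjusted p = 1.0), and that in heavy polysomes minus total RNA was -0.15 ± 0.94 (edgeR adjusted p = 1.0). In set B the effect in heavy polysomes minus that in total RNA lay above 0 for 7 of the 8 genes. Its median was 0.40, against 0.05 over all genes tested. There 11.3% of genes and 2 of the 8 had an unadjusted edgeR p under 0.05, and the 8 genes had edgeR adjusted p-values of 0.349 or above. The check gene did not respond equally in these kinds of RNA. In set B the Trib3 ratio of halofuginone over vehicle was 15.6 and 16.1 in total RNA and 1.46 and 4.23 in heavy polysomes. It was 0.798 and 1.01 in the ribosome-free pool. In set A the ratios were 2.21, 15.4 and 11. The part of this unequal response in the differences between pools was not tested.

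The third comparison set heavy polysomes against the ribosome-free pool within each treatment, which compares how each mRNA was spread between these pools relative to the other genes. Ltbp3 and Emilin1 were higher in heavy polysomes in both treatments. In halofuginone cells edgeR called 21.1% of genes and these 2 of the 8. In vehicle cells it called 29.6% of genes and the same 2 of the 8. CPM in this comparison are scaled over both pools together and differ from those above.

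Ltbp3 had 158, 65.5 and 113 CPM in heavy polysomes of halofuginone cells, against 30.9, 25.6 and 15.7 CPM in their ribosome-free pool (log2 fold change 2.22 ± 0.47, edgeR adjusted p = 0.0101). In vehicle cells it had 227, 109 and 142 CPM in heavy polysomes, against 37.2, 25.1 and 21.7 CPM in the ribosome-free pool (2.51 ± 0.42, edgeR adjusted p = 0.00394). Emilin1 had 48.1, 35.8 and 28.8 CPM in heavy polysomes of halofuginone cells, against 12.1, 15.6 and 16.1 CPM in their ribosome-free pool (1.36 ± 0.37, edgeR adjusted p = 0.0276). In vehicle cells it had 89.6, 71.9 and 115 CPM in heavy polysomes, against 16.0, 14.2 and 17 CPM in the ribosome-free pool (2.55 ± 0.33, edgeR adjusted p = 0.00187). No heavy library overlapped a ribosome-free library in either gene or treatment, and the share of all genes with such separation was not counted.

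The other 6 genes did not pass the threshold. In halofuginone cells Fbln2 had a log2 fold change of 1.67 ± 0.68, Fbln5 of 0.79 ± 0.75, Ltbp2 of 0.68 ± 0.74, Fbn1 of 0.46 ± 0.77, Ltbp1 of 0.37 ± 0.49 and Mfap5 of -1.03 ± 0.52. In vehicle cells the values were 1.82 ± 0.74 for Fbln2, 1.27 ± 0.66 for Fbln5, 1.40 ± 0.84 for Ltbp2, 0.18 ± 0.82 for Fbn1, 0.92 ± 0.57 for Ltbp1 and -0.09 ± 0.53 for Mfap5. With the column tag as replicate block, Fbln2 was also higher in heavy polysomes in halofuginone cells (edgeR adjusted p = 0.041), where 30.3% of genes were called. Under the block Fbln2 (0.0227) and Fbln5 (0.0178) were higher in vehicle cells too, where 36.9% of genes were called. Total-count scaling moved the median of all genes to 0.73 in halofuginone cells and 0.80 in vehicle cells, and relative to that shift Mfap5 stayed near the median gene in vehicle cells, at 0.79.

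**Figure D5:**
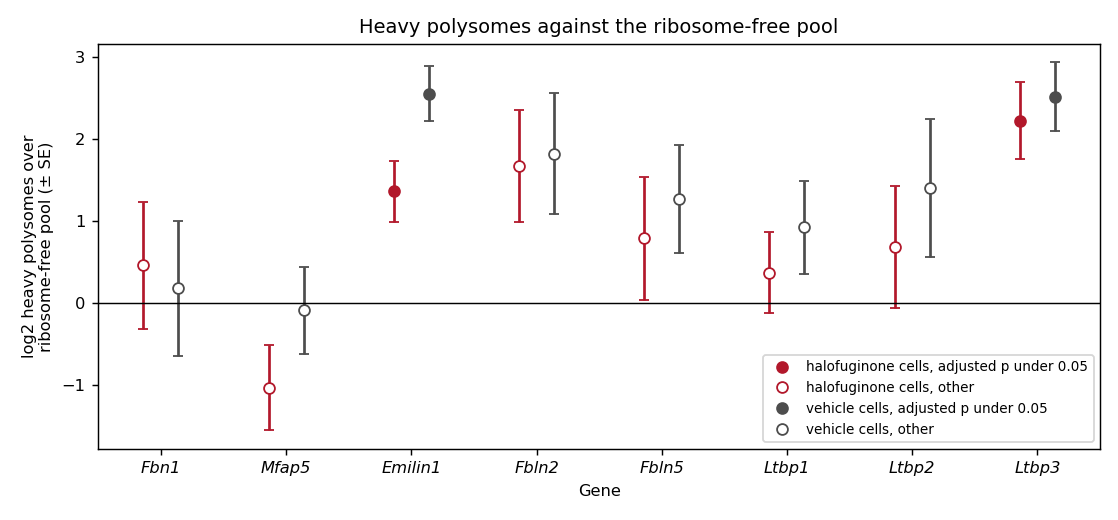
Log2 of heavy polysomes over the ribosome-free pool with its SE for the 8 measured genes, halofuginone cells left of vehicle cells; filled points have an edgeR adjusted p under 0.05. Ltbp3 and Emilin1 are the filled points in both treatments, and Mfap5 is the gene below 0 in both.

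Promoters of the genes, most of which fell in set B, were searched for 4 motifs. RefSeq sequences (GRCm38.p6) of 250 bases before to 50 bases after the start were held for 8 of the 10 genes, without Eln and Mfap5. Both strands were searched for TGATGNAA, the composite site of Atf4 and C/EBP, for TGACGTCA, the cyclic AMP response element, for GTCTAGAC, the palindromic Smad site, and for AGCCAGACA, the CAGA box. The first lies in 3.97% of 32851 promoters, the second in 1.79%, the third in 0.213% and the fourth in 0.387%. The table lists several starts for some genes. Fbln5 held the first motif, 124 bases before a RefSeq start that lies within the annotated gene, downstream of its 5′ end, and Ltbp1 the second, 73 bases before a RefSeq start, and 0 of the 8 held either of the others. The 60 bases around each match are shown with the match in capitals, from chr12:101818575-101818634 on the minus strand and chr17:75005430-75005489 on the plus strand.
Fbln5: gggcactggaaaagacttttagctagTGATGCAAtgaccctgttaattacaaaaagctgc
Ltbp1: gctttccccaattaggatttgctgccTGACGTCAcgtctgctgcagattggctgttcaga
Both genes fell in set B of total RNA, by 1.48-fold for Fbln5 and 1.66-fold for Ltbp1, less than Emilin1, Ltbp2 and Mfap5. A match is a description of these letters and not a bound site.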

How the data were processed

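Polyadenylated RNA of 24 libraries was sequenced after the TruSeq Stranded mRNA kit, per the labels' protocols. The authors deposited raw, whole-number counts per gene symbol, and totals differ between libraries. Trimmomatic 0.36, STAR 2.5.2b, Subread 1.5.0p3 and featureCounts, and the build GRCm38.p5, are named per the submitters' processing notes. For strand and multi-mapping reads the settings are not stated there. Columns were matched to groups by treatment and fraction numbers, not to single samples, with 0 columns of other samples. The labels state biological triplicates and no pairing. Nothing else ties single libraries to separate cultures, so p-values measure the spread between libraries, part of which may be technical.

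Counts were tested with edgeR 4.0.16 (R 4.3.3): TMM scaling, filterByExpr, quasi-likelihood test, Benjamini-Hochberg adjustment over all genes tested, threshold 0.05. SE is the log2 fold change over the root of F. DESeq2 1.42.0, median-of-ratios and total-count scaling, no filter, a filter at a mean of 5 CPM, the column tag as block, the set as covariate, set B only and leaving out each library were alternatives. Fits that left out a library held no block, so in the pools they broke a pair. The fits were tested on simulated counts with the same spread for every gene and no set or tag structure. These libraries have such structure, so that test checks the code and not the power of the fits here. RPKM used the union of exons in GENCODE M21 of GRCm38, which also gave coordinates. Floors are 3 counts per library and cover counting error only. No spike-in is mentioned, so values are shares.

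Deviations from group means of libraries sharing a tag correlated in every pair of the ribosome-free (0.83 to 0.935), light (0.407 to 0.815) and heavy pools (0.358 to 0.781), and between heavy and ribosome-free pools (0.196 to 0.45), so tags pair these samples. The members and lists were chosen with earlier results of these data known. From each list the 2 genes with the largest absolute log2 fold change in total RNA, among those averaging 5 CPM or more in either treatment, are named, and all members are named. In the list of TGF-beta targets 1 gene is not reported here, and the count and the naming leave it out.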

Additional observations from a re-analysis of the deposited data

Results flagged for a closer look

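The treatment effect in total RNA differed between set B and set A by edgeR's interaction test for 7 genes, with log2 differences (set B minus set A) of -3.12 for Emilin1, -1.74 for Ltbp2, -1.44 for Mfap5, -0.72 for Ltbp3, -0.66 for Ltbp1, 0.90 for Fbn1 and 0.43 for Fbln5. Set A has a single library per treatment, and in total RNA, which has no gradient fractions, set and named dose cannot be told apart.

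For 2 genes the log2 ratio of halofuginone over vehicle was above 0 in all 3 pairs of the ribosome-free pool. In another kind of RNA it was below 0 in all 3 pairs. The share of all genes with this pattern was not counted, and tags did not pair the libraries of total RNA. The check gene Trib3 had ratios of 11 in set A and 0.798 and 1.01 in set B of the ribosome-free pool. In total RNA its ratios were 2.21 in set A and 15.6 and 16.1 in set B. The part of this unequal response was not tested. Some log2 ratios of the 2 genes were near 0, such as 0.04 and 0.05 for Fbln2 in the ribosome-free pairs tagged A and 4. That of Ltbp1 in total RNA was -0.03 in set A. For Ltbp1 the mean log2 ratio in the ribosome-free pool stood above that in total RNA by 0.68. It stood above that in light polysomes by 0.36 and above that in heavy polysomes by 0.52. For Fbln2 it stood above that in total RNA by 0.24. The difference between heavy polysomes and the ribosome-free pool was tested for Ltbp1 and missed the threshold (heavy minus ribosome-free, log2 difference -0.57 ± 0.82, edgeR adjusted p = 1.0), and the others were not tested.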

How the results depend on the processing

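With all libraries, the count of the 8 genes called in total RNA was 0, and it was 8 in set B, where 70.0% of genes were called. It was 7 without the set A halofuginone library, against 0 without each of the others (0 to 7). In heavy polysomes it was 1 with DESeq2, which called 0.638% of genes, and 0 under the other settings. For heavy polysomes against the ribosome-free pool in halofuginone cells it was 2 (21.1% of genes) and 1 in set B (11.3%). It was 0 (without the set A heavy library) to 3 when a library was left out. In vehicle cells it was 2 (29.6% of genes) and 4 with the column tag as replicate block (36.9%). It was 5 with the set as covariate (38.2%) and 5 in set B (45.4%). It was 6 with total-count scaling, which also raised the median of all genes, 6 with no filter and 2 to 4 when a library was left out. Shares of all genes called were not kept for total-count scaling, no filter or leaving out a library. The cause was not tested.

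Some values changed sign, none of them called. In heavy polysomes Fbn1 was 0.02 with DESeq2, 0.01 with median-of-ratios factors, 0.00 with the 5 CPM filter, 0.04 with the replicate block, 0.58 with the set as covariate and 1.2 in set B, and Fbln2 was 0.05 in set B. Leaving out a library gave -0.46 to 1.57 for Fbn1 (0.50 without the halofuginone library tagged 2), -1.08 to 0.95 for Fbln2 (0.25 without that library), -1.19 to 0.59 for Ltbp1 and -2.76 to 0.36 for Ltbp2. The Emilin1 effect in heavy polysomes minus total RNA was 0.44 with the block, 0.26 with the set as covariate, 1.45 in set B and -0.59 to 1.70 with a library left out.

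For heavy polysomes against the ribosome-free pool in halofuginone cells, set B gave -0.09 for Fbln5, -0.26 for Ltbp2 and -0.19 for Ltbp1, and leaving out a library gave -0.55 to 1.31, -0.82 to 1.31 and -0.36 to 0.69. In vehicle cells Fbn1 was -0.03 with the 5 CPM filter, -0.20 with the block, -0.32 with the set as covariate, -0.82 in set B and -1.31 to 0.76 with a library left out. Mfap5 there was 0.79 with total-count scaling, 0.14 with no filter, 0.15 with the block, 0.16 with the set as covariate, 0.84 in set B and -0.41 to 0.73 with a library left out (0.12 without the set A heavy library), Ltbp1 -0.03 to 1.33 and Ltbp2 -0.10 to 2.30. In total RNA tags did not pair the libraries (correlations of -0.00316 to 0.434), and the block called 0 of the 8 genes. With the longest transcript as length, vehicle RPKM was 299 for Fbln2, 47.9 for Ltbp3 and 13.3 for both Ltbp1 and Mfap5.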
